A study of Caenorhabditis elegans with 60 samples.

Results

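The proteasome subunits of the nematode Caenorhabditis elegans were followed in whole worms raised in HFPO-DA, hexafluoropropylene oxide dimer acid, a perfluorinated ether acid. The members were chosen by gene identifier: 31 genes encoding the subunits of the 20S core and of the 19S regulatory particle. Of these, 30 were rows of the deposited table of 10298 genes, and the alpha ring subunit pas-3 was not analysed here. They comprise 6 subunits of the alpha ring, 7 of the beta ring, 9 of the base and 8 of the lid, so 13 belong to the core and 17 to the regulatory particle. All 30 passed the filter on low values, which 10293 genes passed.

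Every group held wild-type N2 (Bristol) worms placed as synchronised first-stage larvae into wells of S Medium with the bacterium E. coli HB101 as food and collected after 48 h. The control received no HFPO-DA, and the other 14 groups (0.0125 to 4000 mg/L) received 12.5 or 62.5 µg/L or 0.313, 1.56, 7.81, 15.6, 31.3, 62.5, 125, 250, 500, 1000, 2000 or 4000 mg/L. Each group had 4 libraries, 60 in all, and each library was made from the pooled worms of 1 well, about 1000 animals per the labels. Nothing in the labels says that the wells of a group came from separate cultures, so the p-values measure the spread between wells. That spread is the one left in the deposited values, whose adjustment by replicate number may make it too small. In RNA of whole worms, fewer cells of a type and less RNA per cell cannot be told apart.

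The proteasome is the chamber that degrades proteins marked with ubiquitin. In its core, 2 alpha rings form the gates and 2 beta rings carry the protein-cutting sites. The regulatory particle caps the core: ATPases of the base unfold and thread the substrate, and the lid removes the ubiquitin. The subunits assemble in fixed proportions, and in worms the transcription factor SKN-1A raises the transcription of many of them when the proteasome is blocked.

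The values are a normalised signal on a linear scale, and reads recovered from them gave the depth. A subunit was covered by 36 to 1447 reads per library, with a median of 308 over the 30 subunits and 60 libraries. The libraries held 462117 to 4522107 recovered reads, the controls 999346 to 1914706 and the 4000 mg/L libraries 737039 to 1249951. A pair of libraries had a residual spread over all genes above 1.4 times the median, a limit set after seeing the data. They were replicate 4 at 4000 mg/L and replicate 4 at 31.3 mg/L, both at 1.48. The next were replicate 2 at 1.56 mg/L (1.399) and replicate 3 at 4000 mg/L (1.39), so no gap set the pair apart. Counts of calls and co-variation between wells are given with and without them.

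At 4000 mg/L the transcripts of all 4 subcomplexes were lower than in the control. Of the 30 subunits, 22 fell and 0 rose (limma on log2(value + 1), Benjamini-Hochberg adjusted p under 0.05 over all genes), beside 13.7% of all 10293 tested genes that fell. The median log2 difference of the 30 subunits was -0.37, a level lower by 22.9%, and that of all tested genes was -0.05. All 30 log2 differences were below 0, and they ran from -0.61 to -0.07. By subcomplex, 6 of 6 alpha ring, 6 of 7 beta ring, 4 of 9 base and 6 of 8 lid subunits fell. In 18 of 30 subunits every 4000 mg/L library lay below every control library, against 9.68% of all tested genes. The count of calls rested on single libraries: without replicate 4 at 4000 mg/L, 8 of 30 fell, beside 6.4% of all genes, and without control replicate 2, 12 of 30 fell, beside 8.68% of all genes. The median difference was -0.34 and -0.33 in these fits, and all 30 differences stayed below 0.

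Which calls held could be read per subunit. Leaving out each of the 4 control and 4 treated libraries in turn, 7 subunits were called in all 8 fits: pas-2, pas-5 and pas-6 of the alpha ring, rpt-3 of the base, and rpn-3, rpn-9 and rpn-12 of the lid. The other 15 called subunits lost their call in at least 1 fit, with differences that stayed below 0. The share of all genes that kept a call in all 8 fits is not given here.

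The alpha ring forms the gate of the core. The subunit pas-2 (CELE_D1054.2, chromosome V, 10770368 to 10771351, WBcel235) had deposited values of 346, 448, 442 and 457 in the control libraries and 335, 227, 285 and 267 at 4000 mg/L. Control replicate 1 was close to the highest treated library, but the groups did not overlap. Its level fell by 0.61 ± 0.11 on the log2 scale (SE, limma adjusted p = 6.55e-05), the largest fall among the 30 subunits. For pas-6 (CELE_CD4.6, V, 5583161 to 5584343) the controls were 341, 390, 350 and 325 and the treated libraries 272, 233, 298 and 243, again without overlap, and the log2 difference was -0.43 ± 0.13 (SE, limma adjusted p = 0.0101). The subunit with the highest level per kilobase of exon, pas-5 (CELE_F25H2.9, chromosome I), went from 558 ± 45.2 (SD, n = 4) to 421 ± 53.1, and pas-1 (CELE_C15H11.7, V) from 263 ± 20.9 to 205 ± 18.6, both without overlap. In pas-7 (CELE_ZK945.2, II), at 382 ± 50 in the control and 290 ± 44.1 at 4000 mg/L, and in pas-4 (CELE_C36B1.4, I), at 376 ± 39.4 and 310 ± 48.9, the groups overlapped although both passed the test. The call of pas-4 was lost without replicate 4 at 4000 mg/L (adjusted p = 0.295) and without control replicate 2, 3 or 4 (0.124, 0.0726 and 0.104), that of pas-7 without replicate 4 at 4000 mg/L (0.07) and that of pas-1 without control replicate 2 (0.0506).

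The beta ring holds the sites that cut proteins, and in yeast and mammals its subunits 1, 2 and 5 are the ones with catalytic activity. The gene for the first of these, pbs-1 (CELE_K08D12.1, chromosome IV, 1708814 to 1709745), had values of 356, 472, 401 and 375 in the control and 303, 250, 392 and 304 at 4000 mg/L. Replicate 3 at 4000 mg/L lay among the controls, so the groups overlapped, and the log2 difference was -0.37 ± 0.12 (SE, limma adjusted p = 0.0194). The values of pbs-2 (CELE_C47B2.4, I) were 289, 303, 357 and 292 in the control and 230, 248, 248 and 224 at 4000 mg/L. Those of pbs-5 (CELE_K05C4.1, I) were 322, 442, 369 and 407 against 286, 312, 316 and 292. Neither of these 2 catalytic subunits had overlapping groups, and their log2 differences were -0.38 ± 0.12 (SE, limma adjusted p = 0.0117) and -0.34 ± 0.11 (0.0173).

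Among the non-catalytic beta subunits, pbs-4 (CELE_T20F5.2, I) had the lowest difference. Its values were 438, 538, 479 and 474 in the control and 346, 395, 451 and 278 at 4000 mg/L, with overlap through replicate 3, and the log2 difference was -0.41 ± 0.13 (SE, limma adjusted p = 0.0164). For pbs-7 (CELE_F39H11.5, I) the controls were 408, 477, 436 and 470 and the treated libraries 348, 340, 401 and 292, without overlap (log2 difference -0.38 ± 0.11, SE, limma adjusted p = 0.00661). The subunit pbs-3 (CELE_Y38A8.2, II) went from 431 ± 28.1 (SD, n = 4) to 344 ± 40.1 and was called. The exception was pbs-6 (CELE_C02F5.9, chromosome III, 8243122 to 8244092), whose controls of 278, 403, 393 and 295 spread around treated values of 311, 262, 328 and 282. Its log2 difference was -0.20, with a 95% interval of -0.44 to 0.05 (limma adjusted p = 0.229). The 6 calls of the beta ring were each lost without replicate 4 at 4000 mg/L, with adjusted p of 0.058 for pbs-1, 0.0507 for pbs-2, 0.162 for pbs-3, 0.147 for pbs-4, 0.0584 for pbs-5 and 0.0614 for pbs-7. Without control replicate 2, pbs-1 (0.106), pbs-3 (0.092), pbs-4 (0.0694) and pbs-5 (0.0942) lost theirs, as did pbs-1 without replicate 2 at 4000 mg/L (0.113), pbs-2 without control replicate 3 (0.0596) and pbs-3 and pbs-5 without control replicate 4 (0.0563 and 0.0568).

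**Figure D1:**
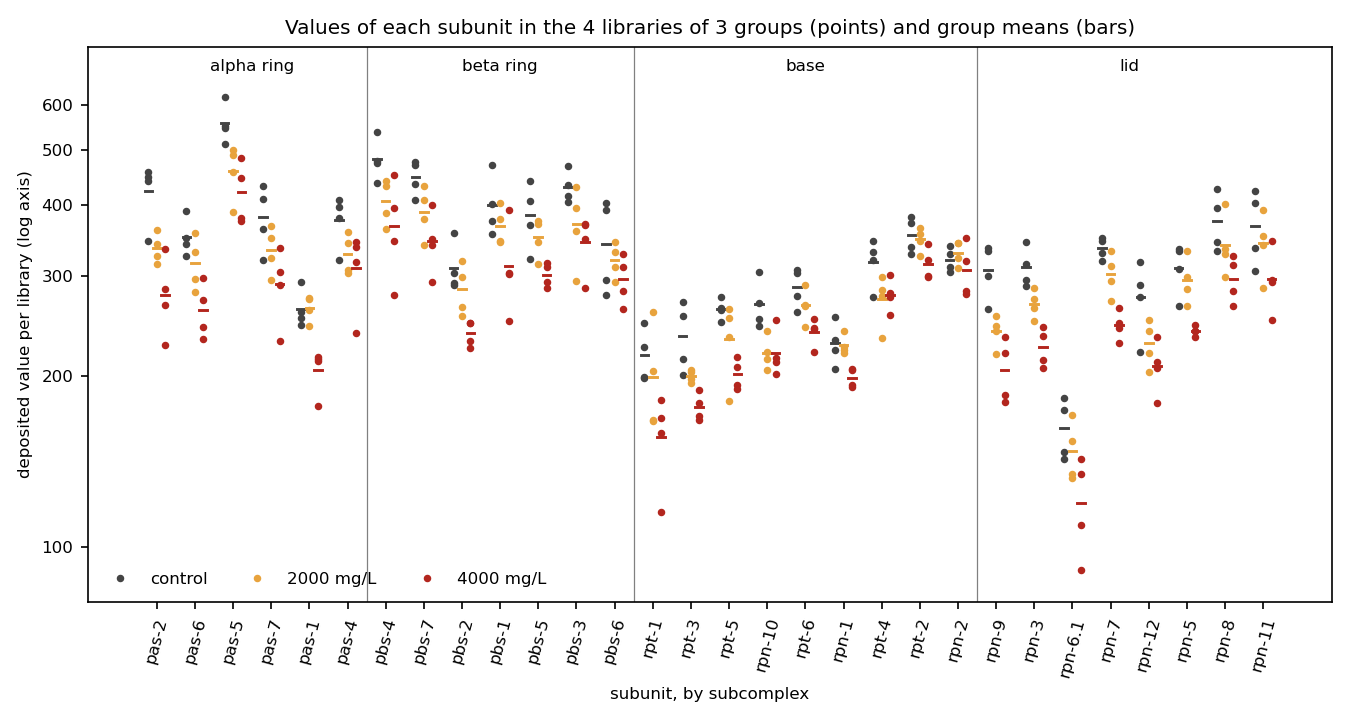
Deposited value (linear unit, log axis) of each of the 30 subunits in the 4 control libraries (grey points), the 4 libraries at 2000 mg/L (yellow) and the 4 at 4000 mg/L (red), ordered by subcomplex and within it by the log2 difference at 4000 mg/L; short bars are group means. In 18 of 30 subunits all red points lie below all grey points, and in rpn-2 the points of the 3 groups overlap.

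The base holds 6 ATPases, rpt-1 to rpt-6, the scaffold subunits rpn-1 and rpn-2, and here also the ubiquitin receptor rpn-10, which sits between base and lid. It had the smallest share of called subunits, and its members differed among themselves. The ATPase rpt-1 (CELE_C52E4.4, chromosome V, 11980534 to 11982397) had values of 199, 225, 248 and 198 in the control and 169, 181, 158 and 115 at 4000 mg/L, and rpt-3 (CELE_F23F12.6, III, 6489793 to 6491282) had 201, 255, 270 and 214 against 170, 167, 179 and 189. In both, the groups did not overlap. The log2 differences were -0.49 ± 0.15 (SE, limma adjusted p = 0.0114) for rpt-1 and -0.40 ± 0.10 (0.00356) for rpt-3. The call of rpt-1 was lost without replicate 4 at 4000 mg/L, its lowest library, where the log2 difference was -0.35 (adjusted p = 0.109).

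The other called members of the base were rpt-5 and rpn-10. The ATPase rpt-5 (CELE_F56H1.4, I) went from 262 ± 10.9 (SD, n = 4) to 202 ± 12.5 without overlap. The receptor rpn-10 (CELE_B0205.3, chromosome I, 10730712 to 10732424) had values of 244, 269, 252 and 305 in the control and 212, 215, 251 and 202 at 4000 mg/L, with overlap through replicate 3, and fell by 0.28 ± 0.10 on the log2 scale (SE, limma adjusted p = 0.03). Both calls were lost in 5 of the 8 fits with a library left out: without control replicates 2, 3 and 4 and treated replicates 2 and 4 for rpt-5 (adjusted p = 0.0536, 0.0619, 0.0523, 0.0628 and 0.0799), and without control replicates 2 and 4 and treated replicates 1, 2 and 4 for rpn-10 (0.0664, 0.141, 0.0619, 0.0601 and 0.12).

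The remaining 5 members of the base did not pass the test against the control. The ATPase rpt-2 (CELE_F29G9.5, V) had values of 337, 381, 372 and 328 in the control and 300, 320, 342 and 299 at 4000 mg/L, rpt-4 (CELE_F23F1.8, II) had 275, 320, 331 and 346 against 301, 276, 280 and 256, and rpt-6 (CELE_Y49E10.1, III) had 276, 303, 308 and 259 against 220, 243, 252 and 242. The treated values of rpt-6 lay below all its controls and those of the other two overlapped them. The 95% intervals of the log2 difference ran from -0.40 to 0.06 for rpt-2 (adjusted p = 0.275), from -0.38 to -0.00 for rpt-4 (0.122) and from -0.51 to -0.00 for rpt-6 (0.123), and of the 8 fits with a library left out rpt-4 passed the test in 1, without control replicate 1 (0.042). For the scaffold rpn-1 (CELE_T22D1.9, IV) the controls were 222, 254, 231 and 206 and the treated libraries 206, 205, 193 and 191, with an interval of -0.50 to 0.10 (adjusted p = 0.331). The other scaffold, rpn-2 (CELE_C23G10.4, chromosome III, 6199184 to 6202594), had 328, 312, 338 and 305 in the control and 279, 350, 282 and 318 at 4000 mg/L. The 4000 mg/L libraries of rpn-2 enclosed the controls, and its log2 difference was -0.07 with an interval of -0.37 to 0.23 (adjusted p = 0.772).

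The lid removes ubiquitin chains from the substrate and had the lowest median difference of the 4 subcomplexes, at -0.42 on the log2 scale. Its scaffold subunit rpn-9 (CELE_T06D8.8, chromosome II, 11237447 to 11238919) had values of 263, 332, 336 and 300 in the control and 234, 185, 220 and 180 at 4000 mg/L, without overlap, and fell by 0.59 ± 0.12 on the log2 scale (SE, limma adjusted p = 0.000168). For rpn-3 (CELE_C30C11.2, III, 8447353 to 8449346) the controls were 296, 345, 315 and 288 and the treated libraries 207, 244, 214 and 235, also without overlap, with a log2 difference of -0.47 ± 0.12 (SE, limma adjusted p = 0.00243). The scaffold subunits rpn-5 (CELE_F10G7.8, II), rpn-6.1 (CELE_F57B9.10, III), rpn-7 (CELE_F49C12.8, IV) and rpn-12 (CELE_ZK20.5, II) were called too. Their mean values went from 310 ± 32 (SD, n = 4) to 240 ± 4.72, from 162 ± 20 to 119 ± 23.7, from 336 ± 14.7 to 246 ± 14.3 and from 275 ± 40.6 to 208 ± 22.7. Without replicate 4 at 4000 mg/L the calls of rpn-5 (adjusted p = 0.0507), rpn-6.1 (0.0586) and rpn-7 (0.057) were lost. Those of rpn-5 (0.0664) and rpn-6.1 (0.0643) were lost without control replicate 2, that of rpn-5 without control replicate 3 (0.0561) and that of rpn-6.1 without replicate 2 at 4000 mg/L (0.0915).

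The pair of lid subunits that carries the deubiquitinating activity was not called. The enzyme itself, rpn-11 (CELE_K07D4.3, chromosome II, 4043055 to 4044546), had values of 336, 423, 403 and 306 in the control and 292, 295, 345 and 251 at 4000 mg/L, with overlap. Its log2 difference was -0.31 with a 95% interval of -0.63 to 0.02 (limma adjusted p = 0.148). Its partner rpn-8 (CELE_R12E2.3, I, 4175319 to 4177271) had 345, 427, 332 and 396 in the control and 283, 265, 314 and 325 at 4000 mg/L. These groups did not overlap, and rpn-8 lay just beyond the threshold (log2 difference -0.33 ± 0.13, SE, limma adjusted p = 0.0535), which it passed without control replicate 1 or 3 or without treated replicate 3 (0.0434, 0.0451 and 0.0499).

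Below 4000 mg/L the subunits differed less from the control. At 2000 mg/L 0 of 30 subunits were called lower than the control, beside 0.175% of all tested genes, and the smallest adjusted p was 0.3. Of the differences 28 of 30 were below 0, with a median of -0.15 on the log2 scale, while the median of all tested genes was 0.00. The share of all genes below 0 is not given here. Counts of signs like this one are not counts of independent results, since the subunits share their libraries and vary together between wells. In 23 of 30 subunits replicate 2 at 2000 mg/L was the lowest library of its group. In 27 of 30 subunits the mean at 2000 mg/L lay between those of the control and of 4000 mg/L. The share of all genes with this order is not given here. At 1000 mg/L 0 of 30 were called lower (0.00972% of all genes) with a median of -0.04, and 19 differences were below 0. At 500 mg/L and at the 10 lower concentrations 0 of 30 subunits were called in either direction, beside 0.0194% of all genes at 500 mg/L, 0.00972% at 250 mg/L and 0% at the 9 lowest. The group medians of the subunits there ran from -0.12 at 31.3 mg/L to 0.06 at 1.56 mg/L, with no order by concentration. The value at 31.3 mg/L was -0.07 without the library of large residual spread in that group. All 14 comparisons share the 4 control libraries.

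**Figure D2:**
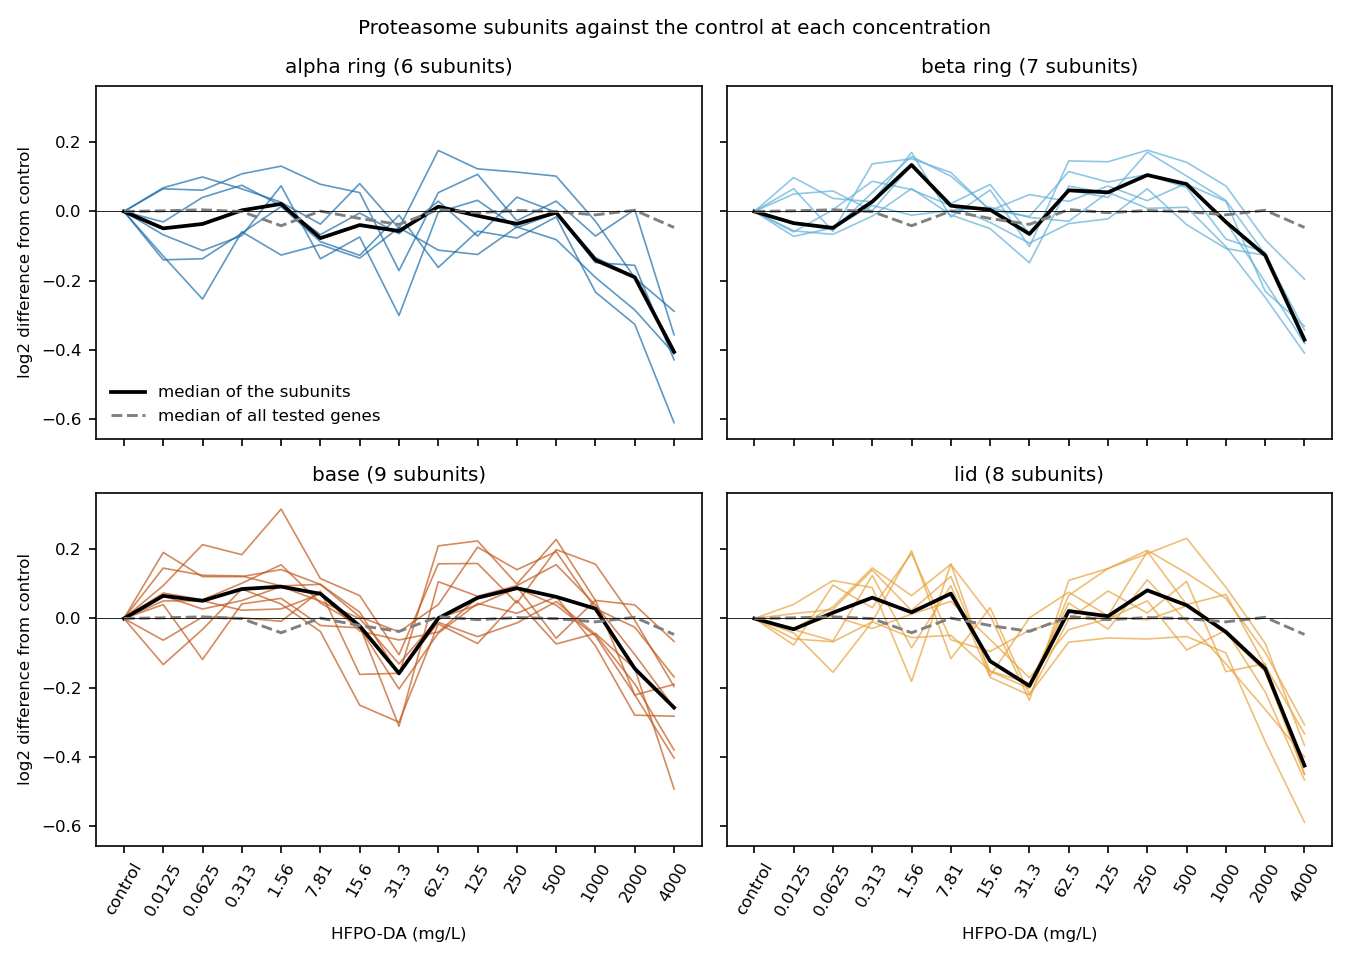
Log2 difference of each subunit from the control (vertical axis) at the 14 concentrations (mg/L, horizontal axis), in 4 panels by subcomplex; coloured lines are subunits, the black line is their median and the dashed line the median of all tested genes. The medians lie nearer to 0 at every lower concentration than at 4000 mg/L, where they reach -0.41, -0.37, -0.26 and -0.42 in the alpha ring, beta ring, base and lid.

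The control and the 8 lowest concentrations, 36 libraries together, gave a larger reference group. Against their mean, 29 of 30 subunits fell at 4000 mg/L and 0 rose, beside 23.8% of all tested genes that fell. The log2 differences ran from -0.55 for rpn-9 to -0.14 for rpn-2, with a median of -0.36, and rpn-2 was the subunit not called (95% interval -0.36 to 0.09, limma adjusted p = 0.314). Against this reference the enzyme rpn-11 had a log2 difference of -0.33 (adjusted p = 0.0196) and its partner rpn-8 one of -0.35 (0.00345). The catalytic subunits pbs-1, pbs-2 and pbs-5 had -0.35, -0.37 and -0.38 (adjusted p = 0.00146, 0.000352 and 0.000186). Without replicate 4 at 4000 mg/L, 23 of 30 were called, a count given without the share of all genes in that fit. The subunits rpt-1, rpt-2, rpt-4, rpn-1, rpn-11 and pbs-6 lost their call there (adjusted p from 0.0656 for rpt-1 to 0.142 for rpn-11). Of these, pbs-6 also lost it without replicate 2 at 4000 mg/L (0.146), and without replicate 1 there rpt-2 and rpt-6 lost theirs (0.0644 and 0.0683). In rpn-9, pbs-2 and pbs-5, 0 of the 36 low libraries lay below the highest 4000 mg/L library, and in rpn-2 20 did. The share of all genes separated in this way from the 36 libraries is not given here.

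At 2000 mg/L all 30 subunits had values below the mean of the low groups, with a median log2 difference of -0.15, but 0 of 30 passed the test (0.35% of all genes did). The subunit nearest to the threshold was rpn-9, whose 2000 mg/L libraries of 255, 240, 245 and 219 gave a difference of -0.31 ± 0.09 (SE, limma adjusted p = 0.0574). It passed the test without control replicate 1 (0.0369). At 1000 mg/L 0 of 30 were called lower against the same reference (0.0583% of all genes), and 22 differences were below 0. Between 4000 and 2000 mg/L directly, 29 of 30 subunits had lower values at 4000 mg/L, with a median log2 difference of -0.19, and pas-1 was the 1 called (adjusted p = 0.0222, with 4.06% of all genes called lower). This count was 0 without replicate 4 at 4000 mg/L or without replicate 3 at 2000 mg/L.

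A line over the rank of the 15 groups gave a falling slope in 7 of 30 subunits (2.77% of all tested genes): pas-1, pas-2, pas-7, pbs-7, rpt-3, rpn-3 and rpn-9. The steepest was that of rpn-9, at -0.02 log2 units per step of rank (limma adjusted p = 0.0112). All 30 slopes were below 0. The slopes rested on the highest concentration, since 0 subunits were called without the 4000 mg/L libraries, where the median slope went from -0.0125 to -0.00512. They also rested on replicate 2: leaving out its 15 libraries gave 0 called, and leaving out replicate 1 gave 12. The shares of all genes in these fits are not given here.

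Core and regulatory particle were then set beside each other. The mean log2 level of the 13 core subunits was 8.60 ± 0.13 (SD, n = 4) in the control and 8.23 ± 0.13 at 4000 mg/L, and that of the 17 subunits of the regulatory particle 8.15 ± 0.09 and 7.81 ± 0.06. The core was called in 12 of 13 subunits and the particle in 10 of 17, but the median log2 differences were alike, -0.38 and -0.37. The SE behind these calls came from all 15 groups, replicate 4 at 31.3 mg/L included. There the uncalled rpn-2, rpn-11, rpt-6 and rpn-1 lay at -1.18, -1.06, -0.98 and -0.91 (log2) from the mean of the other low libraries. The uncalled rpt-2, pbs-6, rpn-8 and rpt-4 lay at -0.49, -0.25, -0.24 and -0.08, and the called rpn-5 at -0.79. Calls without that library alone were not tested. The difference core minus particle within a library was 0.404 to 0.514 in the control, 0.382 to 0.513 at 2000 mg/L and 0.340 to 0.524 at 4000 mg/L. These ranges overlapped, and the group means of 0.452, 0.429 and 0.416 lay within 1 SD of each other (0.0536, 0.0582 and 0.0771). For the mean of all 30 subunits the 4 controls lay at 8.21 to 8.46, the 2000 mg/L libraries at 8.06 to 8.23 and the 4000 mg/L libraries at 7.88 to 8.10 on the log2 scale. The 4000 mg/L libraries were thus below all controls, and of the 36 low libraries 1, replicate 4 at 31.3 mg/L, at 8.04, lay among them. Per kilobase of exon the control level of the alpha ring subunits was 278 to 653, of the beta ring 308 to 602, of the base 72 to 241 and of the lid 98.1 to 322. All subunits of the core have exon lengths of 801 to 1059 bp, and all of the particle except rpn-12 (855 bp) are longer, up to 3171 bp, so core against particle cannot be told apart from short against long transcripts.

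**Figure D3:**
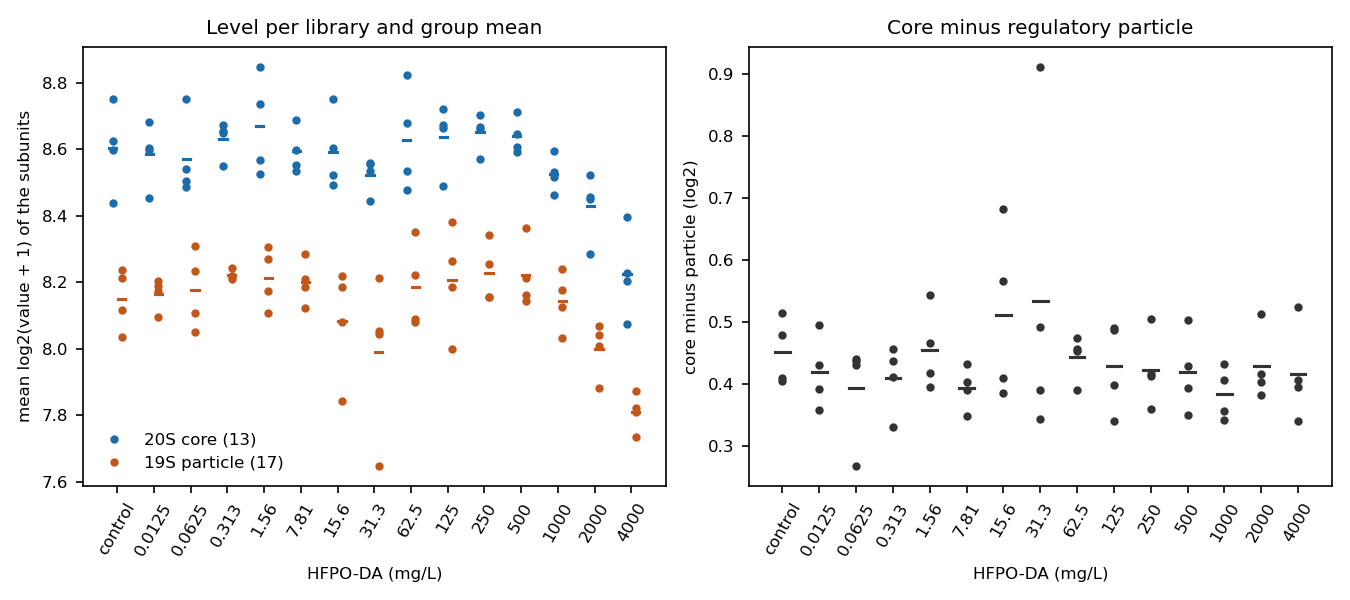
Left, mean log2(value + 1) of the 13 core subunits (blue) and the 17 subunits of the regulatory particle (orange) in each of the 60 libraries (points) with group means (bars), by concentration in mg/L; right, core minus particle in the same libraries. At 4000 mg/L both levels lie below the control while the difference, at 0.340 to 0.524, overlaps that of the control, and 1 library at 31.3 mg/L stands at 0.911.

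That library, replicate 4 at 31.3 mg/L, had a core minus particle difference of 0.911, the highest of all 60, and the next highest was 0.683 in a 15.6 mg/L library. It held rpn-2 at 151.7, beside 271 to 423 in the 35 other low libraries. The deubiquitinase rpn-11 was at 181, below all 35 as well, and pas-2 at 543, above them. In all, 13 of 30 subunits were below every other low library there, 10 of them in the particle. The same share over all genes is not given here, and over all genes the library's residual spread was 1.48 times the median. Transcript length moved with this pattern. The median log2 difference of the library from the other low libraries was -0.02 in the 14 subunits of 750 to 1100 bp, -0.46 in the 14 of 1100 to 2000 bp and -1.05 in the pair of scaffolds above 2000 bp. Over all genes with a mean value of at least 20, the same classes had medians of 0.14, -0.04 and -0.33 (1052, 2240 and 1592 genes). The oocyte markers were at a summed level of 6868 in this library, the lowest of the 36 low libraries, and the part of either in the result was not tested.

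At 4000 mg/L the differences showed no such order with length below 2000 bp. The 14 subunits of 750 to 1100 bp had a median of -0.38 and the 14 of 1100 to 2000 bp one of -0.37, and all genes of mean at least 20 in these classes had -0.22 and -0.19. The scaffolds rpn-1 and rpn-2, the subunits with the longest transcripts, had a median of -0.13, beside -0.12 for all genes of 2000 to 4000 bp.

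**Figure D4:**
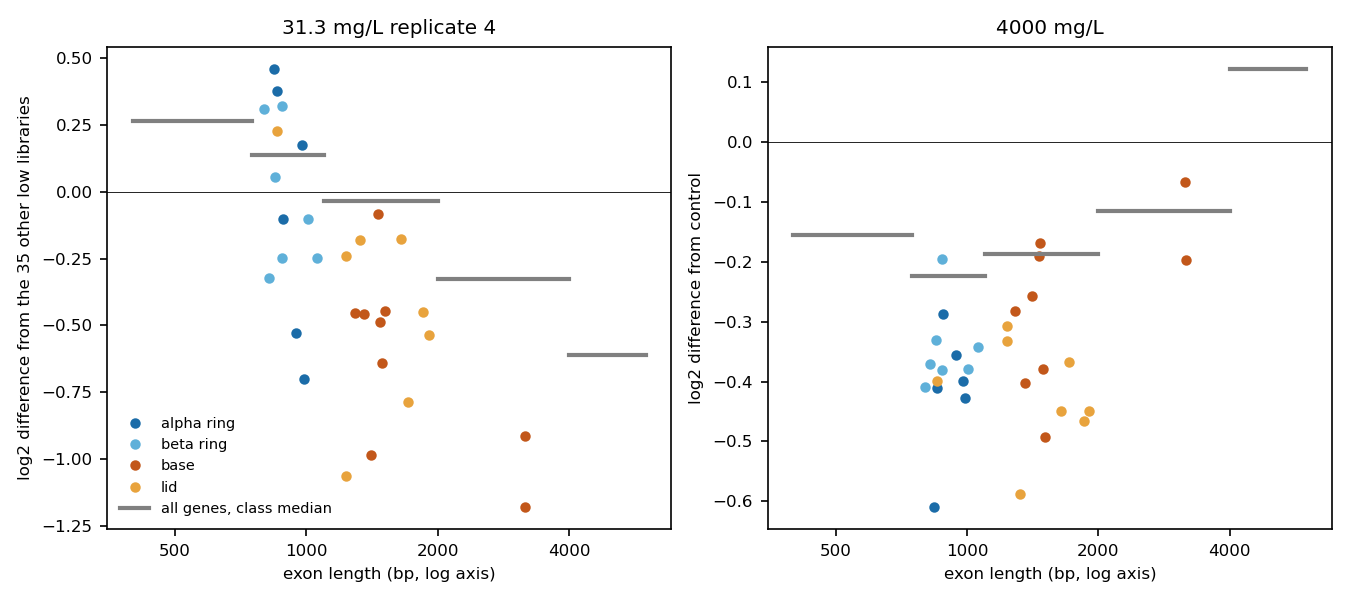
Log2 difference (vertical axis) against exon length in bp (log axis) for the 30 subunits, coloured by subcomplex; left, replicate 4 at 31.3 mg/L against the mean of the 35 other low libraries, right, 4000 mg/L against control. Grey bars are medians of all genes of mean at least 20 in 5 length classes: on the left they go from 0.26 to -0.61 with length, and on the right they are -0.16, -0.22, -0.19, -0.12 and 0.12 from the shortest to the longest class.

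The subunits also varied together between wells of the same group. Deviations from the group means were taken over the 60 wells, and Pearson's r was computed for each of the 435 pairs of subunits. The median r was 0.35, with 392 pairs above 0, beside a median of 0.01 over all pairs of the 6697 genes of mean at least 20. Points share their library and its depth. After the means of 5 sets of 12 consecutive sample numbers were also removed the median was 0.27. It was 0.36 without the 4000 mg/L libraries. Without replicate 4 at 31.3 mg/L it was also 0.36, and 424 of the 435 pairs were above 0. Without both libraries of large residual spread it was 0.36 with 421 pairs. Of other complexes, the 70 ribosomal protein genes in this range had a median r of 0.72, the 8 genes of the chaperonin CCT 0.27 and the 21 genes of the vacuolar proton pump 0.23. Between subunits and ribosomal proteins the median was 0.29, between subunits and the chaperonin 0.30, and between subunits and the proton pump -0.02.

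Within the proteasome the co-variation depended in part on 1 library. With all 60 wells the median r was 0.40 within the core, 0.39 within the particle and 0.29 between them, and without replicate 4 at 31.3 mg/L it was 0.43, 0.36 and 0.34. The mean of the core and the mean of the particle correlated with an r of 0.63 over all wells and 0.77 without that library. All pairs were above 0 in the beta ring and in the base, with a median of 0.47 and 0.46 over all wells and 0.54 and 0.39 without the library. The alpha ring had 0.29 and 0.35, and the lid 0.33 and 0.32.

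The closest pairs were rpt-1 with rpn-7 at 0.80, rpn-5 with rpn-11 at 0.79 and pbs-4 with pbs-7 at 0.79, and without replicate 4 at 31.3 mg/L they had 0.80, 0.69 and 0.76. The most distant pairs rested on that library: pas-2 with rpn-2 went from -0.36 to -0.08 without it, and rpn-12 with rpn-2 from -0.35 to -0.08. The deubiquitinase rpn-11 followed the mean of the other 29 subunits most closely, with an r of 0.84, and the ATPase rpt-5 came next with 0.77 (0.86 and 0.75 without the library). With all wells 6 subunits had an r under 0.4, namely rpn-12, pas-2, pas-5, pbs-4, pas-7 and pbs-7 at 0.13 to 0.39. These 6 were at 0.18 to 0.46 above the mean of the other low libraries in replicate 4 at 31.3 mg/L on the log2 scale, where 23 of the other 24 subunits were below it. Without that library 1 of the 6 was under 0.4, rpn-12 at 0.31, and the others had 0.42 to 0.60.

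**Figure D5:**
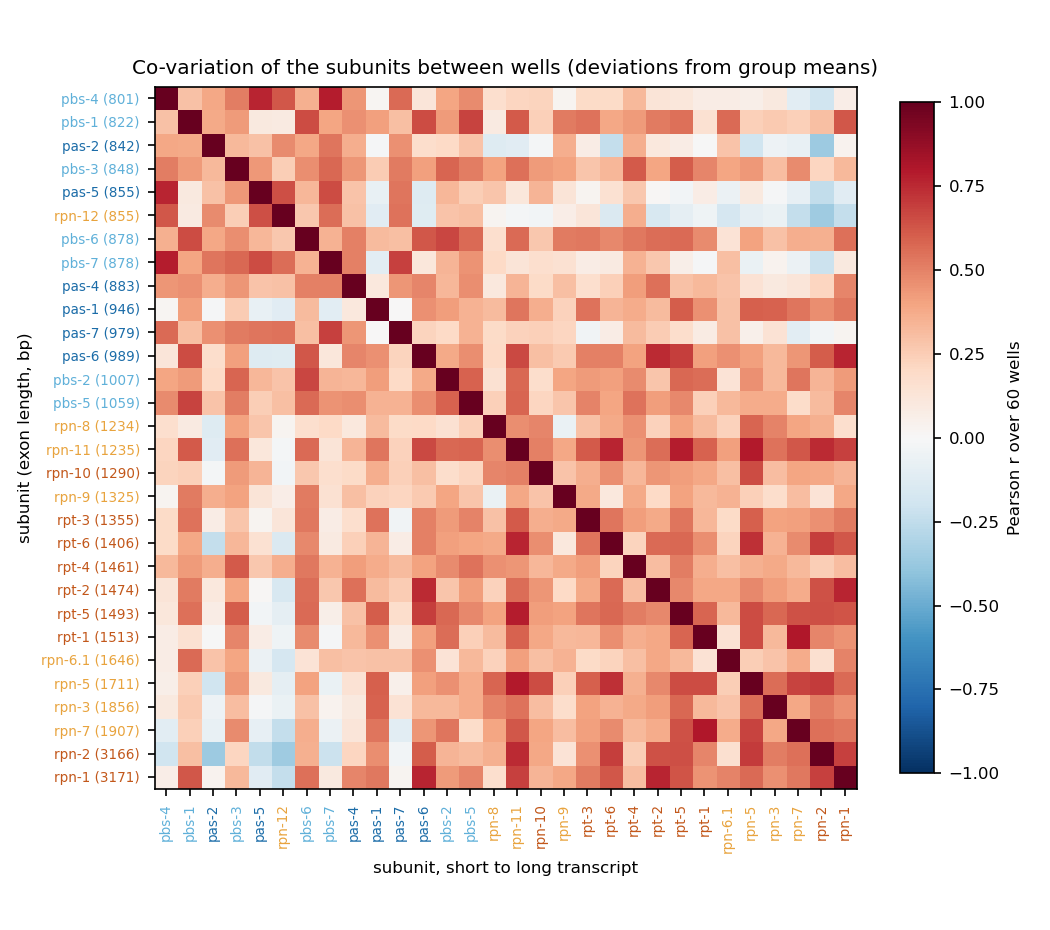
Pearson's r between the deviations from group means of each pair of the 30 subunits over 60 wells (colour scale from -1 to 1), with subunits ordered by exon length in bp and names coloured by subcomplex (dark blue alpha ring, light blue beta ring, dark orange base, light orange lid). Most cells are red, with 392 of 435 pairs above 0, and the blue cells, such as -0.36 for pas-2 with rpn-2, include pairs that move towards 0 without replicate 4 at 31.3 mg/L, which is part of the plot.

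Among the 6667 other genes of mean at least 20, the deviations most like the mean of the subunits were those of gln-5, a glutamine synthetase, with an r of 0.90. After it came cey-2, a Y-box RNA-binding protein (0.90), pcn-1, the sliding clamp of DNA replication (0.89), car-1, an RNA-binding protein of the germ line (0.88), and gpd-1, a glyceraldehyde-3-phosphate dehydrogenase (0.88). The next were yop-1, a membrane protein of the endoplasmic reticulum (0.87), rme-2, the yolk receptor of oocytes (0.87), cyb-3, a B-type cyclin (0.86), ubxn-1, a cofactor of the unfolding ATPase CDC-48 (0.86), and mcm-4, a subunit of the replicative helicase (0.85). All 30 subunits had a lower r with the mean of the other subunits than each of these 10 genes had with the subunit mean. The 10 genes were picked as the highest of 6667 on this same r, which favours that order. It therefore does not show that the subunits follow these genes more closely than each other. The 10 genes kept an r of 0.79 to 0.88 after removal of the set means, and 8 of them were among the 10 highest without replicate 4 at 31.3 mg/L. At 4000 mg/L 7 of the 10 fell, from -0.46 for rme-2 to -0.69 for pcn-1 on the log2 scale, and yop-1, ubxn-1 and mcm-4 did not pass the test.

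Other genes of the ubiquitin and proteasome pathway were taken from lists of genes by function, read beside the 13.7% of all genes that fell at 4000 mg/L. Of 10 proteasome-associated genes, 3 fell and 0 rose: usp-14 and ubh-4, deubiquitinases that bind the regulatory particle, and psme-3, a gene for an alternative cap of the core. The value of usp-14 went from 172 ± 31 (SD, n = 4) to 120 ± 22 (log2 difference -0.52 ± 0.14, SE, limma adjusted p = 0.00397). The proteasomal ubiquitin receptor rpn-13 had a log2 difference of -0.11 (adjusted p = 0.629). Of 5 genes that act in the regulation of proteasome genes, 1 fell. It was ddi-1, the protease that cuts the transcription factor SKN-1A into its active form, which went from 112 ± 7.92 to 73.1 ± 8.63 (log2 difference -0.61 ± 0.13, SE, limma adjusted p = 0.000635). The gene of that factor, skn-1, had 86.4 in the control and 82.9 at 4000 mg/L (log2 difference -0.06, adjusted p = 0.814), and png-1, which deglycosylates it, had a difference of 0.01 (0.966).

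Ubiquitin, its activating enzyme uba-1 and the conjugating enzymes made 15 measured genes, of which 4 fell and 0 rose, with a median log2 difference of -0.30. The conjugating enzymes ubc-7, ubc-14, ubc-15 and ubc-16 were the ones that fell, by 0.28, 0.51, 0.73 and 0.51 on the log2 scale. The call of ubc-7 was at the threshold (limma adjusted p = 0.0499). The polyubiquitin gene ubq-1 (-0.30, adjusted p = 0.145) and uba-1 (-0.22, 0.208) were not called against the control. Against the pooled low groups uba-1 was called lower (-0.32, limma adjusted p = 0.00652) and ubq-1 was not called (-0.25, 0.0722). Further conjugating enzymes were called there, ubc-24 as higher (0.72, 0.0105). The counts of the pathway lists are those against the control. Of 11 genes of the unfolding ATPase CDC-48 and its cofactors 3 fell, namely ubxn-2, ufd-3 and ufd-1 (-0.49, -0.44 and -0.34). Of 11 genes of cullin ubiquitin ligases 4 fell: elc-1, elb-1, cul-2 and rbx-1 (-0.99, -0.65, -0.50 and -0.32). The value of elc-1 was 133 ± 125 in the control, a spread near its mean. Against the pooled low groups elc-1 was not called (log2 difference -0.45, limma adjusted p = 0.144), while elb-1, cul-2 and rbx-1 were called lower.

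Of 6 genes of the COP9 signalosome, a complex related in structure to the lid, 4 fell, with a median log2 difference of -0.45. They were csn-4 (-0.63), csn-1 (-0.52), csn-6 (-0.45) and the catalytic csn-5 (-0.44). The 8 genes of the chaperonin CCT, which folds actin and tubulin, had 3 called lower and a median of -0.24. Not every large complex went this way: 9 of 21 genes of the vacuolar proton pump rose and 0 fell (median 0.37), beside 14.7% of all tested genes that rose, led by vha-6, vha-12 and vha-15 (0.85, 0.75 and 0.55), and of 72 ribosomal protein genes 0 were called, with a median of -0.05. At an unadjusted p under 0.05, 4 of the 72 ribosomal protein genes were counted.

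Markers of the germ line moved at the same concentration. Of 20 oocyte markers 12 fell and 0 rose at 4000 mg/L, with a median log2 difference of -0.55, led by cpg-3, oma-2 and mex-1 (-0.87, -0.81 and -0.77). Their summed value was 9230 to 11861 in the controls and 5922 to 8595 at 4000 mg/L, without overlap. Of 18 germ line markers 5 fell (median -0.25), with summed values of 3255 to 3697 and 2667 to 3252. Of 6 vitellogenin genes, which encode yolk proteins made in the intestine, 4 fell (median -1.18), with summed values of 25329 to 42359 and 13675 to 25299. Of 32 sperm genes 5 rose, near the share of 14.7% of all tested genes (median 0.67), with summed values of 6001 to 15601 and 11225 to 20790. No marker on these lists was without reads in either group.

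Markers of the body are likewise read beside the 14.7% of all genes that rose. Of 11 intestine markers 5 rose and 1 fell (median 0.52, summed 7199 to 10092 in the controls and 9581 to 12637 at 4000 mg/L). Of 13 muscle markers 2 rose, near that share (0.19, 16337 to 18853 and 18231 to 21072). Of 11 neuron markers 3 rose (0.32, 387 to 472 and 462 to 579), and of 8 hypodermis markers 6 rose (1.19, 6133 to 7699 and 6521 to 10180). Some of the hypodermis markers had low values, such as rol-6 (mean 4.24 in the control, 15.5 at 4000 mg/L) and bli-1 (3.31 and 11.3). Over the 60 wells, deviations of the mean subunit level from the group means had a Pearson's r of 0.85 with those of the oocyte markers, 0.83 with the vitellogenins, 0.79 with the chaperonin, 0.70 with the germ line markers, 0.56 with the ribosomal proteins and 0.36 with the log2 depth. It was 0.33 with the intestine, 0.16 with the muscle, -0.24 with the neuron, -0.26 with the hypodermis and -0.31 with the sperm markers. After removal of the set means r was 0.80, 0.75, 0.74, 0.58, 0.68 and 0.43 for the first 6 measures, and 0.55, 0.55, -0.16, 0.02 and 0.13 for the other 5, so germ line, intestine and muscle markers then had similar values. Within the 5 sets r ran from 0.57 to 0.86 with the oocyte markers, from 0.35 to 0.85 with the vitellogenins, from -0.26 to 0.87 with the germ line markers, from 0.07 to 0.90 with the intestine markers, from -0.01 to 0.89 with the muscle markers and from -0.29 to 0.77 with depth. Without replicate 4 at 31.3 mg/L the pooled r was 0.87 with the oocyte, 0.67 with the germ line and 0.26 with the intestine markers, and 0.83 with the vitellogenins. At 2000 mg/L against the low groups, 0 of 30 subunits and 0 of 20 oocyte markers were called. The median of the oocyte markers was -0.09 there, and that of the subunits is given above. The part of the markers and of depth in the differences of the subunits was not tested.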

How the data were processed

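Poly(A) RNA of 60 wells was sequenced at shallow depth, per the labels' protocols. The deposited table gives each gene a linear, normalised signal; how the authors normalised it is not given in the sources used here. Per the submitters' processing notes, the genome build was WBcel235 and the tools included STAR 2.7.10a and HTSeq 2.0.1, besides Trimmomatic 0.39, edgeR 3.36.0 and UMI-tools 1.1.2. Subtracting 1 from a value leaves a product: (1 + reads divided by a constant of the library) multiplied by a factor shared by the 15 libraries of a replicate number in that gene. With this form 100% of 617880 values gave whole reads within 0.0001 reads (a read number of 0 is held as 0.5). Differences between replicate numbers had thus been adjusted for in the deposited values, which may make the spread between replicates too small.

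Values were tested as log2(value + 1) with limma 3.58.1 in R 4.3.3 (intensity trend, 15 group means in 1 fit, 10293 genes with a value of at least 5 in at least 4 libraries). This scale slightly understates the change of low genes. p-values are two-sided and Benjamini-Hochberg adjusted over all tested genes, with a threshold of 0.05. Contrasts compared each concentration with the control, 4000 with 2000 mg/L, and 4000, 2000 and 1000 mg/L with the equally weighted mean of the control and the 8 lowest concentrations; a second model fitted a slope over the concentration rank (0 to 14). The models and the recovery of reads were tested on simulated data. Positions and exon lengths are from the annotation of WBcel235. Co-variation used deviations of log2 values from group means. Python 3.11.15 with pandas 2.3.3 and numpy 2.4.6 was used.

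The subunits and gene lists were chosen with earlier results of these data known. The test plan counted 31 subunits with 14 in the core; 30 and 13 were measured. Full values are given for the 2 called subunits of each subcomplex with the lowest difference at 4000 mg/L, for pbs-1, pbs-2, pbs-5, rpn-10 and rpn-11, and for every subunit not called. From other lists up to 3 called genes with the largest change are named (with the 2 of highest mean where none was called), and the 10 genes most like the subunits; the other genes named were chosen after their values were seen. Alternatives were another pseudocount (5), no filter and a filter at 20, rescaling by median ratios, the replicate number as a block, a term for sets of 12 consecutive sample numbers, voom on recovered reads, recovered reads over size factors with the set term, and leaving out libraries. The fits with voom and the block together and without the 2 libraries whose residual spread exceeded 1.4 times the median were added after seeing the data, as was the co-variation without these libraries. Replicates of a group differed by more than sampling noise in all 90 pairs (at least 1.65 times its dispersion).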

Additional observations from a re-analysis of the deposited data

Results flagged for a closer look

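In groups of 4 libraries, the gap of the extreme library to its nearest neighbour was compared with the range of the group in 90 groups of values, and 3 exceeded Dixon's 95% critical value, which chance exceeds in about 1 in 20 groups. The mean log2 level of the 30 subunits was 8.0553 in replicate 2 at 2000 mg/L, beside 8.22 to 8.23 in the other 3 libraries of the group. In 23 of 30 subunits that library was the lowest of its group. Leaving it out, the median log2 difference of the subunits at 2000 mg/L from the low groups was -0.11, against -0.15 with it, and 0 of 30 were called either way. The core minus particle difference was 0.26859 in replicate 4 at 62.5 µg/L, beside 0.431 to 0.441 in the rest of that group. The alpha ring subunit pas-2 had a value of 346.33 in control replicate 1, beside 442 to 457 in the other controls, and its fall at 4000 mg/L was called in each of the 8 fits that left out a control or 4000 mg/L library.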

How the results depend on the processing

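The number of subunits lower at 4000 mg/L than in the control was 22, and 17 to 23 under the other scalings, filters and models; leaving out each library in turn gave 8 to 24, and leaving out the pair of libraries of large spread gave 12. Against the pooled low groups the count was 23 to 29 throughout, given without the share of all genes in each fit. Between 4000 and 2000 mg/L it was 1, 0 with voom on recovered reads, and 0 to 2 without a library. At 2000 mg/L against the pooled low groups it was 0, 1 after rescaling by median ratios (rpn-9), 2 with the set term (rpn-9 and pbs-7) and 0 to 1 without a library. The 7 falling slopes became 2 with voom on recovered reads, 3 without the libraries of large spread, 0 without the 4 g/L libraries, 0 without the 4 and 2 g/L libraries and 0 to 12 without a replicate number. The counts of 0 at 2000 and 1000 mg/L against the control, at 1000 mg/L against the low groups and at the 11 lower concentrations were 0 in every fit run, voom included. At an unadjusted p under 0.05, limma counted 8 of 30 subunits at 2000 mg/L (7.28% of all genes) and 1 at 1000 mg/L (3.34%) against the control, 13 (12.3%) and 0 (4.91%) against the low groups, and 0 to 4 at each lower concentration (2.86% to 6.58%). Over all genes, those lower at 4000 mg/L than in the control numbered 1414, against 745 with voom, 659 without replicate 4 at 4000 mg/L and 765 without the libraries of large spread.

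The deposited values already carry an adjustment by replicate number, so pairing by number was also checked on recovered reads. There, deviations of same-numbered libraries had r of -0.23 to -0.08 between 4000 mg/L and control over 4 numbers (-0.24 to -0.02 in the deposited values), and over all 420 pairs -0.45 to 0.67, with 236 over 0.1 (-0.59 to 0.65 and 116 in the deposited values). The median over these pairs was 0.18 in recovered reads and -0.04 in the deposited values. Since not every pair was over 0.1, the numbers were not taken to pair the samples, but this rule cannot exclude pairing. With the number as a replicate block 22 subunits were lower at 4000 mg/L and 29 against the low groups, and 6 slopes fell. Of 360 values of the 20 subunits with full values under alternatives, 0 changed sign, 26 lost and 6 gained a call. With 36 to 1447 reads per subunit and library, the 95% interval of a log2 difference from the control, such as -0.37 to 0.23 for rpn-2, is wide beside the median of -0.15 at 2000 mg/L.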
